A study of Homo sapiens with 2 samples.

Results

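The listed ATF1 peaks at 9 genes of the PI3K, AKT and mTOR pathway are described here: PIK3CA, PIK3CB, PIK3R1, AKT1, AKT2, TSC1, TSC2, RHEB and MTOR. They were taken from the peak table of the ChIP library as the rows carrying these gene names. All 9 were found among the 15064 rows, and each gene has 1 row. The study was done in HCT116, an established human colon adenocarcinoma line that is known to carry an activating PIK3CA mutation. They received 3xFlag-tagged ATF1 and were cultured with 10% fetal bovine serum. After fixation with 1% formaldehyde and shearing to 200 to 400 bp, tagged ATF1 was precipitated with 5 µg of antibody. There was 1 such library and 1 library of input DNA from the same line, with no replicate of either. The sources used here do not give how the tagged protein was introduced, or its level beside the ATF1 that the cells make themselves.

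ATF1 is a transcription factor of the CREB family, with a basic leucine zipper that binds the cAMP response element (CRE) and its half-site in promoters. In the pathway, a class I PI3-kinase at the membrane phosphorylates an inositol lipid in answer to growth factor receptors, and the lipid product recruits AKT kinases. AKT phosphorylates TSC2, the partner of TSC1, and this relieves the brake that the TSC complex keeps on the small GTPase RHEB. RHEB then activates mTOR, the kinase that drives protein synthesis and cell growth. In colorectal cancer, activating changes of this pathway are common.

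RHEB had the strongest of the 9 peaks, and its fold enrichment of 12.62 was above that of 85.8% of all listed peaks. The other 8 peaks were between 3.65-fold (AKT1) and 8.03-fold (PIK3CA). Of the 9, only RHEB and PIK3CA were at or above the table's median of 6.97-fold, as 50.2% of all listed peaks were. Peaks at PIK3CA, PIK3CB, PIK3R1, TSC2, RHEB and MTOR sat on the start of the gene. Those at AKT1, AKT2 and TSC1 lay inside the gene, away from its ends. Fold enrichment is the authors' own ratio, and they do not state its background. No test was possible with a single library, so each value describes this library only.

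As a group the 9 peaks had a lower median fold enrichment than the table and a higher median tag count. Their median fold enrichment was 5.84 (range 3.65 to 12.62), against 6.97 over all listed peaks. The median number of tags, which are sequenced reads counted in the peak, was 260 (range 23 to 1254), against 162 over all peaks, and 7 of the 9 were at or above that value. Median peak length was 1811 bp (847 to 16944 bp), against 1551 bp. Per 100 bp of peak, the 9 held a median of 13.0 tags, against 8.82 over all peaks. In order of tags, RHEB and AKT1 had overlapping counting intervals, as did each neighbouring pair among TSC2, PIK3CB, AKT2 and PIK3CA. The steps from AKT1 to PIK3R1, from PIK3R1 to TSC2, from PIK3CA to MTOR and from MTOR to TSC1 exceeded them. These are exact 95% Poisson intervals and cover counting error only.

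**Figure D1:**
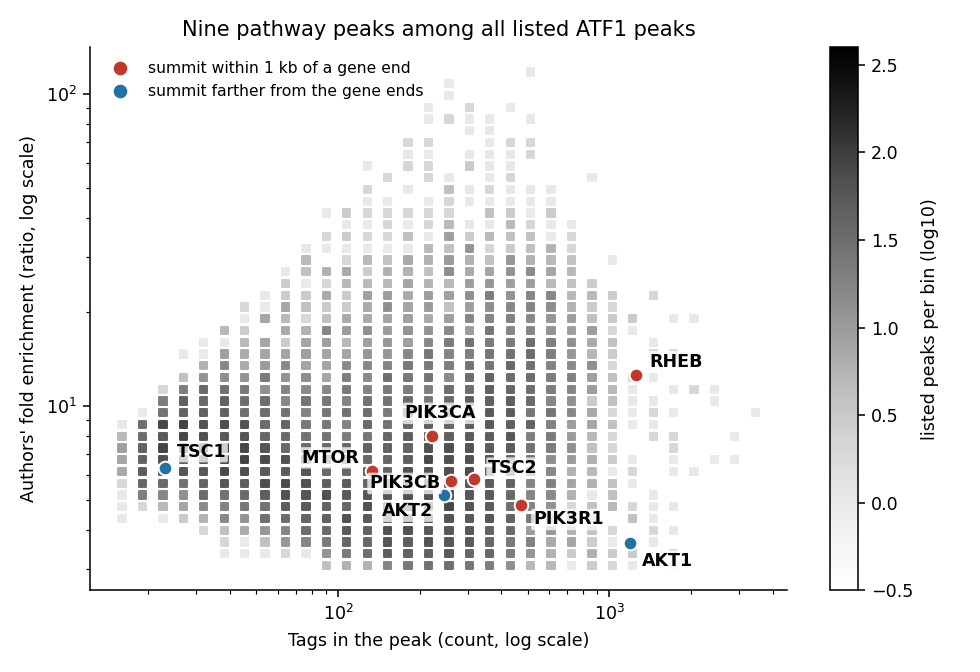
Authors' fold enrichment (vertical, log scale) against tags in the peak (horizontal, log scale) for the 9 genes, over a grey map of all 15064 listed peaks in which darker squares hold more peaks. RHEB, with 1254 tags and 12.62-fold enrichment, stands at the upper right of the 9, AKT1 has nearly as many tags at 3.65-fold, and TSC1 has 23 tags.

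Promoter sequences are shown for the genes whose window held part of a CRE, the element that ATF1 is known to bind, and for MTOR, whose window held none. The sequences are from RefSeq (GRCh38.p14), 5′ to 3′ on the gene's strand and ending just before the annotated start where 150 or 250 bases are given. Capitals mark the CRE half-site TGACG or TGACGT, here in the reverse complement orientation, CGTCA or ACGTCA. The RHEB stretch is chr7:151519896-151520145 on the minus strand, and the MTOR stretch chr1:11262552-11262801 on the minus strand. The TSC2 stretch, chr16:2047835-2047984 on the plus strand, runs between the opposed starts of NTHL1 and TSC2. For AKT2 (chr19:40285427-40285456, minus strand) and TSC1 (chr9:132944756-132944785, minus strand) only the 30 bases around the half-site are shown, since their listed peaks lie elsewhere in the gene.
RHEB: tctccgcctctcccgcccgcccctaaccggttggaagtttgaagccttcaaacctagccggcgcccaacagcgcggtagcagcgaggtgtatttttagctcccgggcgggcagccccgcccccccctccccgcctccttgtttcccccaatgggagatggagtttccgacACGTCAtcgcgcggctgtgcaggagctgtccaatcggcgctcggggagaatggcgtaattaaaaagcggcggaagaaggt
MTOR: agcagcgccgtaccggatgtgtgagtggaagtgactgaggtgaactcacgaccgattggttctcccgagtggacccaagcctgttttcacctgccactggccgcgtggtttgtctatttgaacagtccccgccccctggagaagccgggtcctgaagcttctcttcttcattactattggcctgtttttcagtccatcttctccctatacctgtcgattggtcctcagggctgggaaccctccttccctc
TSC2: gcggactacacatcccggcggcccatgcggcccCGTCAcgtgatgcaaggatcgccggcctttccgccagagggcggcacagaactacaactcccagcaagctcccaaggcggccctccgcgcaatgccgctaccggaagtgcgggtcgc
AKT2: tggctctttgtACGTCActtcctgtttgtg
TSC1: tccaacccacatCGTCAgttatgagtggaa

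PIK3CA and PIK3CB encode the p110 alpha and p110 beta catalytic subunits of class I PI3-kinase. The PIK3CA peak (chr3:179147860-179149566, hg38) held 222 tags (interval 193.8 to 253.2) over 1707 bp, with a fold enrichment of 8.03 and a score of 460.46. The score is also the authors' value, of unstated basis. By fold enrichment the peak was above 62.2% of all listed peaks, and by score above 77.6%. Its summit lay 98 bp after the annotated promoter start, in what the authors classed as an intron. It was 329 bp from the outer end of the RefSeq gene, which lies before that start. The start of PIK3CA-DT, a noncoding transcript that runs the other way, was also inside the peak, 384 bp from that PIK3CA promoter start. That transcript has no row of its own in the table.

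The PIK3CB peak (chr3:138833891-138835557) held 260 tags (229.4 to 293.6) over 1667 bp and had 5.77-fold enrichment, above 33.3% of peaks. It was classed as upstream, with the summit 29 bp before the start. The tag intervals of the PIK3CA and PIK3CB peaks overlapped, whereas the ranks by fold enrichment differed by 62.2% against 33.3%. PIK3CB has a further annotated start within the gene, and the listed peak was at the outer one.

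PIK3R1 encodes p85 alpha, the regulatory subunit that holds p110 in check and couples it to receptors. Its peak (chr5:68214556-68216786) held 473 tags (431.3 to 517.6) over 2231 bp, the third highest tag count of the 9, and was classed as exonic. The summit was 19 bp from the annotated start of the longest form. By tags the peak was above 90.1% of all listed peaks, but its fold enrichment of 4.82 was above only 20.0%. PIK3R1 has 4 annotated starts in the promoter table. The listed peak lay at the outermost, and the table does not show whether the others were bound, because it gives 1 peak per gene name.

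AKT1 and AKT2 encode AKT kinases, and the listed peak of neither covered an annotated start. The AKT1 peak (chr14:104776323-104793266) was 16944 bp long, the longest of the 9 and number 21 by length in the whole table. It covered 64.2% of the gene and was classed as intronic, with its summit 8200 bp inside the gene from the start. It held 1189 tags (1122 to 1259), more than 99.6% of peaks. Spread over that length, this was 7.02 tags per 100 bp, above 41.4% of peaks, and the fold enrichment of 3.65 was above 5.16%. The peak ended 2482 bp short of the outer start. A further annotated start of AKT1, at position 104793601 inside the gene, lay just beyond that end of the peak. It was 6053 bp from the summit, and its promoter window held a TGACG match that began 42 bases after it. Another listed peak, assigned to LOC102723342 (145 tags, 3.90-fold), had its summit 592 bp from the far end of AKT1 and overlapped 1581 bp of the gene.

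The AKT2 peak (chr19:40232249-40236517) lay near the opposite end of its gene from the start. It held 245 tags (215.3 to 277.7) over 4269 bp, which was longer than 96.3% of peaks. Its fold enrichment was 5.20, above 25.0% of peaks, and it was classed as exonic. The summit was 49451 bp from the start and 5577 bp from the gene's other end. Tag density was 5.74 per 100 bp, so AKT1 and AKT2 shared long peaks with a density below the table's median of 8.82. No listed peak, under any gene name, had its summit within 1 kb of the outer start of either gene. Since only 1 peak is listed per gene name, this does not show that those starts were unbound.

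TSC1 and TSC2 encode hamartin and tuberin, the subunits of the complex that switches RHEB off. Their peaks differed in place and in tag content. The TSC1 peak (chr9:132925884-132926730) held 23 tags (14.6 to 34.5), the fewest of the 9, over 847 bp. Its summit was in an intron, 18366 bp after the annotated promoter start and 19128 bp from the outer end of the gene. Its fold enrichment of 6.32 was above 40.8% of peaks, but by score (59.11) it was above 10.3% and by tags above 3.34%. The nearest other listed peak, assigned to GFI1B, had its summit 4113 bp from the TSC1 promoter start and held 51 tags at 4.96-fold.

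The TSC2 peak (chr16:2047052-2048862) sat on the start, with its summit 44 bp before it. It held 318 tags (284.0 to 354.9) over 1811 bp, above 76.0% of peaks, and had 5.84-fold enrichment, above 34.6%. The intervals on tags of TSC1 and TSC2 were far apart, while their fold enrichments were 6.32 and 5.84. The start of NTHL1, a DNA glycosylase gene of base excision repair on the other strand, was 151 bp from that of TSC2 and 107 bp from the summit. NTHL1 has no row of its own, so the peak cannot be given to one gene of the pair. A long peak assigned to PKD1, 22460 bp with 1861 tags and 3.19-fold enrichment, covered 14344 bp of the far part of TSC2.

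RHEB, the GTPase that activates mTOR, had the highest value of the 9 in tags, score, density and fold enrichment. Its peak (chr7:151518456-151522342) held 1254 tags (1186 to 1325) over 3887 bp and was number 51 of the whole table by tags. The score of 2270.73 was above 98.5% of peaks and the density of 32.3 tags per 100 bp above 98.6%. The peak was classed as upstream, with the summit 178 bp before the start, and it reached 2447 bp upstream. By fold enrichment it was above 78.0% of upstream peaks and number 2145 in the table. No start of another gene in the promoter table lay inside it.

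MTOR, the kinase itself, had a peak (chr1:11261724-11263072) of 133 tags (111.4 to 157.6) over 1349 bp. It had 6.21-fold enrichment, above 39.4% of peaks, and by score (134.50) it ranked above 45.8%. Its summit lay 73 bp inside the gene from the start, and the authors classed the peak as exonic. Of the 6 peaks at gene starts, this one had the fewest tags, and RHEB had the most.

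**Figure D2:**
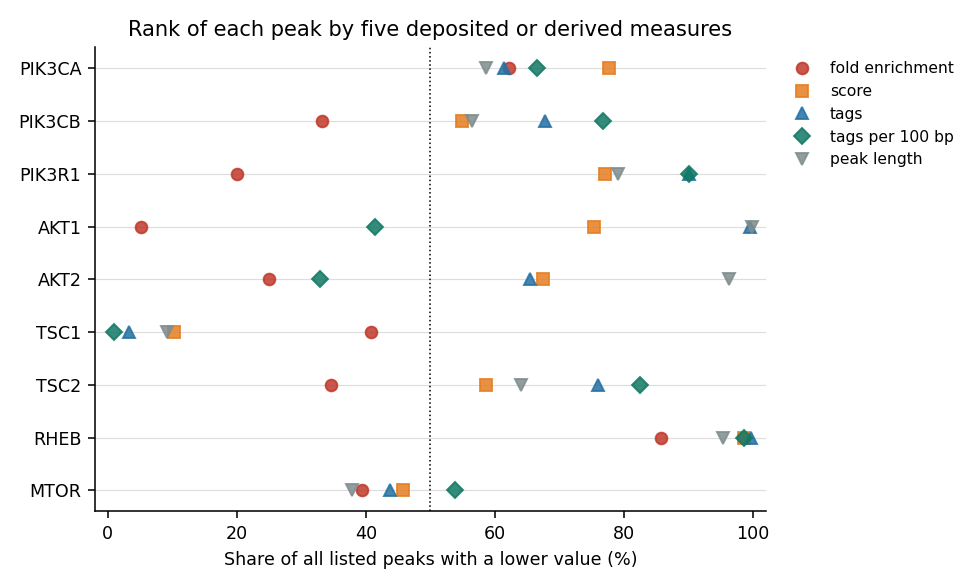
Share of all listed peaks with a lower value (horizontal, percent) for each of the 9 genes by fold enrichment, score, tags, tags per 100 bp and peak length; the dotted line marks 50%. RHEB is at the right by every measure, AKT1 runs from 5.16% by fold enrichment to 99.6% by tags, and PIK3R1 from 20.0% to 90.1%.

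Position of the 1 listed peak in the gene split the 9 into 6 and 3. A summit within 1 kb of either end of the gene was found for 6 of the 9, beside 62.0% of the 12141 listed peaks of protein-coding genes (background), so the share was near that of the table. Within 1 kb of the outermost start in the promoter table the count was also 6, beside 61.1% of listed peaks. Their summits lay between 19 bp (PIK3R1) and 178 bp (RHEB) from the start, and each peak covered the start itself. Among peaks at gene ends, the 6 had a median of 289 tags against 238 for all such peaks, and a median fold enrichment of 6.03 against 7.52. By the authors' classes, 4 of the 9 were exonic, 3 intronic and 2 upstream, and none was downstream. Over the table, 43.5% were exonic, 33.9% intronic, 19.9% upstream and 2.70% downstream.

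**Figure D3:**
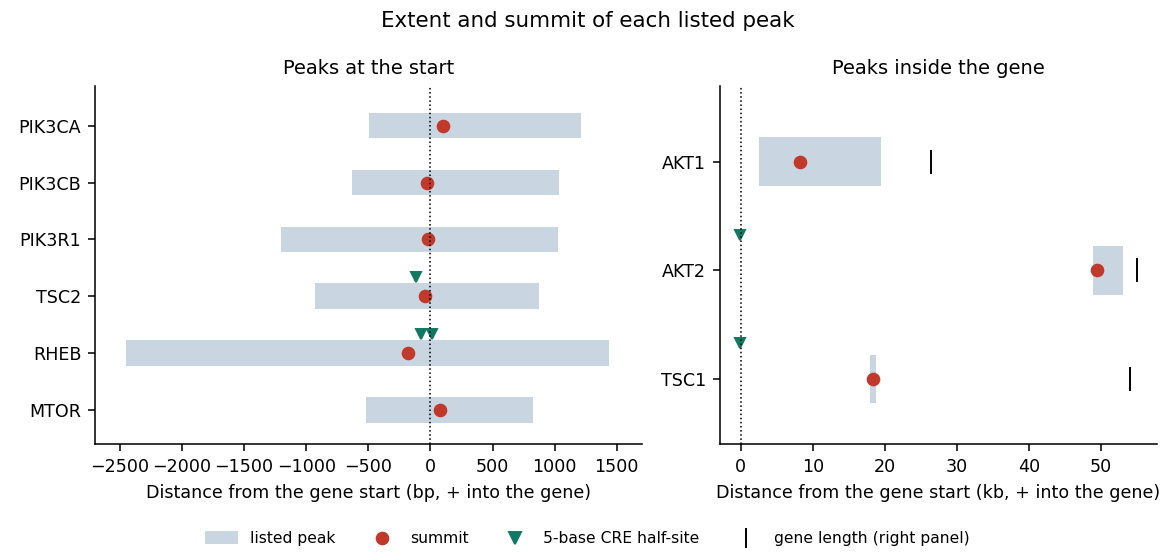
Extent of each listed peak (bar), its summit (circle) and the 5-base CRE half-sites found in the promoter window (triangles) by distance from the annotated gene start, in bp for the 6 peaks at starts (left) and in kb for the other 3 (right, where a vertical tick marks the far end of the gene). The RHEB and TSC2 half-sites lie inside the listed peak, whereas those of AKT2 and TSC1 lie at a start that the listed peak does not cover.

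The promoter window of each gene, from 250 bases before to 50 after the outermost start in the promoter table, was searched on both strands. For PIK3CA and TSC1 that start (179148357 and 132944616) lay inside the RefSeq gene, whose outer ends were 179148126 and 132945378. The TSC1 window therefore did not reach the outer end of its gene. The full CRE, TGACGTCA, was in none of the 9 windows and in 2.56% of the 15811 windows of protein-coding genes. The half-site TGACG, which is part of the full CRE and of the longer half-site, was in 4 of the 9 (AKT2, TSC1, TSC2 and RHEB), beside 29.3% of all windows. The longer half-site TGACGT was in the windows of RHEB and AKT2, beside 9.65% of all windows. RHEB alone of the 9 held 2 half-sites. Its TGACGT match began 80 bases before the start and 98 bp from the summit, and its other match, TGACG, began 10 bases after the start and 188 bp from the summit. The TSC2 match began 117 bases before the start, 69 bp from the summit. The AKT2 and TSC1 matches, 100 and 157 bases before their starts, were 49546 bp and 18519 bp from the summits. No half-site was found in the windows of PIK3CA, PIK3CB, PIK3R1, AKT1 and MTOR. A match is a description of the letters, and binding to it was not tested.

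Across the table, windows with a half-site were a larger share where the peak at the start had higher fold enrichment. Among 6011 listed peaks within 1 kb of the gene's outermost start, 37.7% of windows held TGACG and 13.4% held TGACGT. From the lowest to the highest quintile by fold enrichment the share was 20.7%, 24.0%, 34.1%, 46.9% and 62.7%. For TGACGT the shares were 3.66%, 4.83%, 9.65%, 15.0% and 34.0%. RHEB was in quintile 4, counted from the weakest, PIK3CA in quintile 3, TSC2, PIK3CB and MTOR in quintile 2 and PIK3R1 in quintile 1. Of these 6 genes, RHEB and TSC2 held a half-site.

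**Figure D4:**
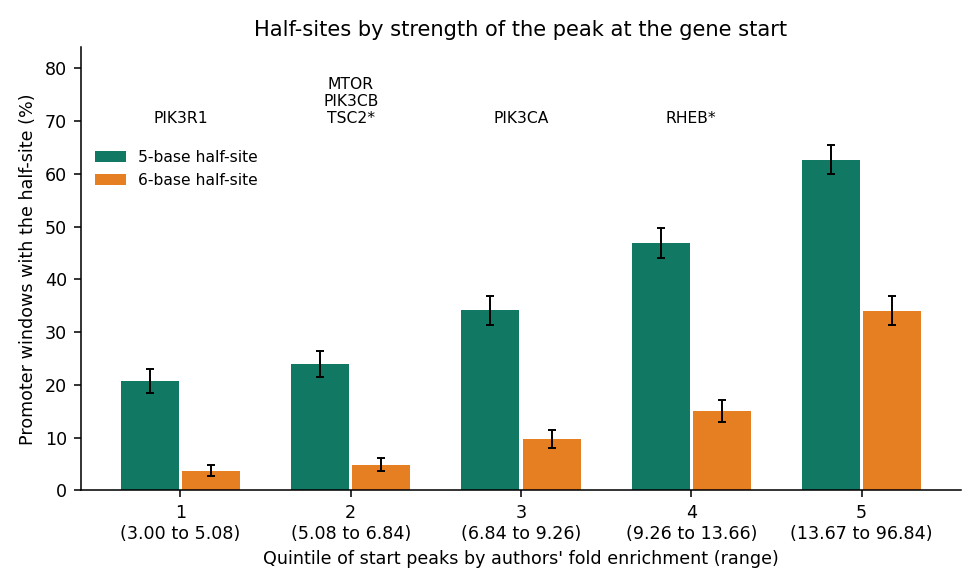
Share of promoter windows holding the 5-base or the 6-base CRE half-site (vertical, percent; error bars are exact 95% binomial intervals over windows) in quintiles of the 6011 start peaks ordered by the authors' fold enrichment. The names above the bars show the quintile of each of the 6 genes with a start peak, and an asterisk marks those with a 5-base half-site in the window; the share rises from 20.7% to 62.7%.

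The 9 windows varied in base composition. GC content was between 59.3% (MTOR) and 83.3% (AKT1), with a median of 68.0% against 62.7% for all windows. CpG pairs per window ranged from 16 (MTOR) to 49 (AKT1), with a median of 27 against 22. The AKT1 window had more CpG pairs than 97.9% of all windows, and the listed AKT1 peak did not reach the outer start. RHEB, with 27 pairs, was above 62.2% of windows. Of the 9, AKT1 had the most CpG pairs and the lowest fold enrichment. RHEB, with the highest fold enrichment, had the median number of pairs. The listed peaks of AKT1, AKT2 and TSC1 lie outside these windows, so for them the CpG count and the fold enrichment describe different places. A relation between the values was not tested.

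Beside the 9, 67 other genes of the pathway were listed by role. Of these, 60 were named in the peak table, against 60.8% of protein-coding genes, and 46 had their own listed peak within 1 kb of a gene end, against 37.7%. Their median fold enrichment was 7.94 (3.35 to 30.02), and 35 of the 60 were at or above the table's median. None of the 60 held more tags than RHEB, and 10 had a higher fold enrichment. Over all listed peaks RHEB was above 99.7% by tags and 85.8% by fold enrichment, so both counts were near the table's share. Whether these genes are expressed in HCT116 was not measured. The list was drawn up with earlier results of these data known.

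By role, the strongest other PI3-kinase subunit gene was PIK3C3, the class III lipid kinase of autophagy (19.66-fold, 128 tags). Its fold enrichment was above those of PIK3CA, PIK3CB and PIK3R1, while its tags were fewer. All 6 genes listed as phosphatases of the pathway had a gene-end peak, beside 37.7% of all protein-coding genes and 62.0% of their listed peaks, and their median was 6.70-fold, beside 6.97 over all listed peaks. PDPK1, the kinase that phosphorylates AKT, had 10.48-fold enrichment, against 3.65 and 5.20 for AKT1 and AKT2. Its 201 tags were fewer than the 1189 of AKT1 and the 245 of AKT2. AKT1S1, which encodes the mTOR inhibitor PRAS40, had 9.40-fold and 291 tags, against 6.21-fold and 133 tags for MTOR. TBC1D7, the third subunit of the TSC complex, had 12.15-fold enrichment and 183 tags. TSC2 had 5.84-fold and 318 tags, and TSC1 6.32-fold and 23 tags. PIK3C3, PDPK1, AKT1S1 and TBC1D7 were each taken as the highest of their role by fold enrichment.

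Genes that feed amino acid and energy signals to mTOR had a median of 10.4-fold over 18 named of 21, and LAMTOR5, of the lysosomal Ragulator complex, was the strongest (30.02-fold, 374 tags). Downstream targets were led by RPS6KB2, an S6 kinase gene (27.04-fold, 476 tags), with a median of 8.13-fold over 12 named of 13. Receptors and adaptors had a gene-end peak at 1 of 7 genes, beside 37.7% of all protein-coding genes. IGF1R had the highest fold enrichment among them (10.89-fold, 43 tags), in an intron 79260 bp from the nearer end. The TSC1 peak, with 23 tags in an intron 19128 bp from the nearer end, was also of this kind. The 7 listed genes without a row were PIK3CG, MLST8, NPRL2, SESN3, PRKAA2, IRS1 and GSK3B.

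**Figure D5:**
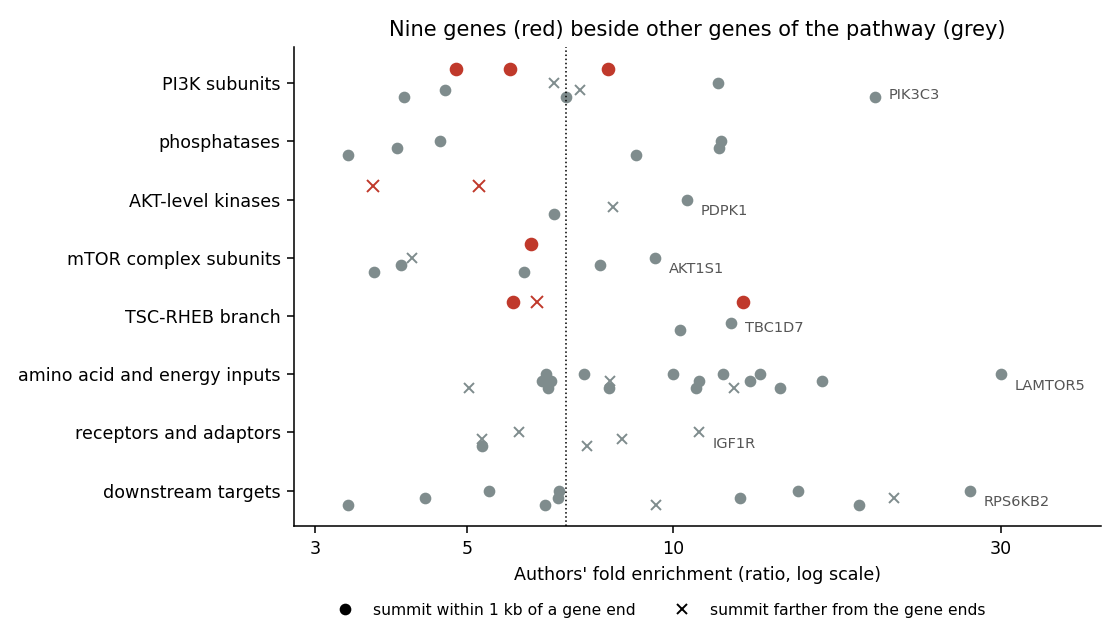
Authors' fold enrichment (horizontal, log scale) of the 9 genes (red) and of the 60 other named pathway genes (grey) by role; circles mark summits within 1 kb of a gene end, crosses those farther away, and the dotted line is the table's median of 6.97. The strongest other gene is named for each role but the phosphatases, and RHEB at 12.62-fold is the only red point above 10-fold.

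Of 9 colon epithelial genes, 8 were named in the table and 7 had a gene-end peak, beside 60.8% and 37.7% of all protein-coding genes. KRT20 was the one without a row. Of 9 genes of hepatocytes, lymphocytes, fibroblasts, muscle and neurons, 5 were named, a share near that of all protein-coding genes, and 1 had a gene-end peak. A peak table does not measure expression, so these counts do not check the labelled cell line.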

How the data were processed

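Chromatin from HCT116 cells was sequenced in 1 ATF1 ChIP library and 1 input library, and only the ChIP peak table was used. The submitters' processing notes name CASAVA, Bowtie2, bedtools and hg38. Not given in the sources used here are the peak caller, its control sample and the gene models. Tags, per the file headers, are deposited as whole-number counts for each peak, without normalization. Fold enrichment, per the file headers, is a deposited linear ratio whose background is unstated, and the deposited score has no stated basis. The table holds 15064 peaks with 15064 distinct gene names, and 1 line without a position was left out. Classes upstream and downstream reach 2 kb from the gene. Total reads are unknown, so the absence of a peak is not evidence of no binding.

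Gene ends and starts came from RefSeq (GRCh38.p14). Of the names, 13439 matched a current symbol, 694 an older one and 931 neither. All 9 genes had promoter windows. The members and gene lists were chosen with earlier results of these data known. All 9 genes were named, as were the strongest other gene of each role by fold enrichment, the listed genes without a row, and neighbours that share a gene end. A gene that this rule takes is not reported here. No test was run, since there is 1 library. Percentiles are shares of listed peaks with a lower value. The code was tested on simulated data. Alternatives changed the ranking measure, the window, the peak threshold, the gene model and the motif. Python 3.11.15, numpy 2.4.6, pandas 2.3.3, scipy 1.17.1 and matplotlib 3.10.9 were used.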

Additional observations from a re-analysis of the deposited data

How the results depend on the processing

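The rank of the 9 peaks depends on the measure. Their median percentile was 34.6 by fold enrichment, 67.4 by score, 67.7 by tags and 66.5 by tags per 100 bp. By fold enrichment among gene-end peaks only it was 30.9. Of 45 values of single genes under these alternatives, 41 moved beyond an interval on the percentile and 4 did not. That interval is narrow and is not the counting interval on tags, so a move need not be large. AKT2, at 25.0 among all peaks and 25.9 among peaks of the same class, counted as moved. RHEB stayed between 78.0 and 99.7 in all 5, and TSC1 between 0.916 and 44.0. The count of 6 gene-end peaks stayed at 6 with the other windows, the overlap rule and the other gene models. It was 7 when any listed peak counted, through the far end of AKT1, and 5 at 5-fold or more. Shares over all genes were not computed for these rules. The count was 2 when only peaks at or above the median fold enrichment were used. Of the 12141 listed peaks of protein-coding genes, 4205 met both the gene-end rule and that threshold. With that threshold the other pathway genes fell to 26 with a gene-end peak and 35 named. Over all 19970 protein-coding genes, 4205 had such a gene-end peak, and 50.2% of all listed peaks were at or above that median. The 4 windows with a half-site became 2 for TGACGT, 2 for matches inside the listed peak and 0 for the full CRE. They became 5 with all annotated starts, through the inner start of AKT1. Shares over all windows were not computed for matches inside the peak or for all starts. Gene ends as the authors give them and all annotated starts were chosen after seeing the data. The cause was not tested. No paired analysis was possible because each group has 1 library and the input has no table used here.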

Other observations

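The 5 Ragulator subunit genes, which anchor mTOR signalling at the lysosome, all had their listed peak within 1 kb of a gene end, beside 62.0% of listed peaks of protein-coding genes. This family was singled out after its values were seen, so the count supports nothing about it. LAMTOR1 had 6.44-fold enrichment and 115 tags, LAMTOR2 8.06-fold and 278 tags, and LAMTOR3 13.38-fold and 183 tags. LAMTOR4 had 16.48-fold and 323 tags, and LAMTOR5 30.02-fold and 374 tags. FOXO3, a transcription factor that AKT phosphorylates, held 1090 tags, the most of the 60 other named genes, with 20.99-fold enrichment and a summit 1233 bp before the start.

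Of the 7 pathway genes without a row, 3 had a listed peak of another gene within 1 kb of an end. The share over all protein-coding genes without a row was not computed, so this count is a description only. At NPRL2, a subunit of the GATOR1 complex that restrains mTOR, the peak was assigned to CYB561D2 and had 25.15-fold enrichment and 380 tags, 109 bp from the nearer end of NPRL2. At GSK3B, a kinase that AKT inhibits, a peak assigned to LOC107986119 had 7.28-fold enrichment and 545 tags. At PRKAA2, a catalytic subunit gene of AMP-activated kinase, a peak assigned to LOC101929935 had 3.82-fold enrichment and 148 tags. A missing gene name in the table is thus not the same as a gene end without a listed peak.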
